A study of Homo sapiens with 3 samples.

Results

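Ribosome biogenesis and nucleolar genes were examined by ribosome profiling (Ribo-seq), which sequences the mRNA fragments protected by ribosomes, so that the footprint count of a gene reflects how many ribosomes sat on its mRNA. The set held 50 genes, chosen by name from the 63241 genes of the count table: MYC and 49 genes of the RNA polymerase I machinery, the nucleolus and ribosome assembly. All 50 members passed the filter on low counts, as did 19820 genes in all. The footprints came from HEK293T, an established line of human embryonic kidney origin whose SV40 large T antigen can itself bind p53. The construct in each line was wild-type p53 (WT) or p53 carrying G245S or R273H, which are hotspot mutations of this tumor suppressor in the domain that contacts DNA. The lines were made with lentivirus and kept under puromycin, and whether they were clonal is not given in the sources used here. The labels call the cells stable in one field and transiently expressing in another, and the treatment field of the mutants names the WT construct, so groups were taken from the sample titles. All 3 groups received cycloheximide shortly before lysis. Each group had 3 culture dishes (n = 3 in all values below), which were pooled within the group at reverse transcription, so a difference between groups cannot be told apart from a difference between pools. HEK293T cells with no construct added were not analysed here.

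Ribosomes are built in the nucleolus, where RNA polymerase I transcribes the ribosomal RNA (rRNA) precursor. Small nucleolar ribonucleoproteins (snoRNPs) modify this precursor, and a large number of assembly factors fold and cut it and load the ribosomal proteins on the way to a small and a large subunit. MYC is a transcription factor known for driving many genes of this pathway, often through the E-box sequence in their promoters. WT p53 and ribosome assembly are linked, because free ribosomal proteins RPL5 and RPL11 bind MDM2, the ubiquitin ligase that degrades p53.

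The total per library was 18719212 to 24595383 expected counts, and the 2.58% biological coefficient of variation shows how closely the dishes of a group matched. The scale of all dish values is CPM, the count of a gene per 1000000 counts of its library, with library totals scaled by TMM. Log2 fold changes and their standard errors (SE) come from 1 edgeR quasi-likelihood fit of the 9 libraries, and calls were made at a threshold of 0.05 on the p-value adjusted by Benjamini-Hochberg for the 19820 genes. Of 18 alternative settings without a minimum fold change, those named most often are leaving out 1 dish, adding the dish number as a term (the replicate block) and removing the genome-wide trend of counts with coding length and GC content (the length and GC trend). Dish 3 stood apart from the other two dishes in every group, with chi-square values per degree of freedom of 1.88 to 2.62 for pairs with dish 3 and 1.48 to 1.56 for the others. The WT construct was checked with 2 classical p53 targets that are not members. MDM2 was 860.3 ± 49.3 CPM in WT (SD), 76.8 ± 4.20 in G245S and 76.7 ± 2.94 in R273H. CDKN1A, a cell cycle inhibitor, was 61.1 ± 2.27, 16.1 ± 0.345 and 13.9 ± 0.515 CPM. Of markers for the cell line, KRT8, KRT18, LIN28B, VIM and PAX2 were all detected, PAX2 at only 5.01 to 8.24 CPM. Of these, KRT8 rose in R273H (33.9 ± 1.25 CPM in WT, 43.4 ± 1.07 in R273H), as did PAX2 (log2 fold change 0.35), and VIM rose in G245S (884 ± 12.2 CPM in WT, 983 ± 15.6 in G245S), and their part in the results was not tested. The defining markers of blood, liver, endothelium and fibroblasts (PTPRC, ALB, PECAM1, DCN) had 0 to 9 counts per library. In bulk samples such as these, fewer cells of a type and less RNA per cell cannot be told apart, and with no RNA-seq used here, more mRNA and more ribosomes per mRNA cannot be told apart either.

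Most members carried more footprints in both mutants, by modest amounts. In G245S against WT, 31 of 50 members rose, 1 fell and 18 were not called. Of all tested genes 12.6% were called higher and 12.1% lower. Among the 4430 genes within the CPM range of the members (49.3 to 2718 CPM) 27.6% were called higher and 19.1% lower. This range is set by the lowest and the highest member, and power was not matched within it. In R273H against WT, 31 members rose, 6 fell and 13 were not called, beside 14.2% higher and 14.6% lower over all tested genes and 28.0% and 24.2% within the CPM range. The median log2 fold change of the members was 0.11 in G245S and 0.099 in R273H, while over all genes it was −0.00069 and −0.0024. Of the members, 84.0% lay above 0 in each mutant, against 55.4% and 52.3% of genes in their CPM range. On the log2 scale the members spanned −0.10 to 0.33 in G245S. In R273H they spanned −0.20 to 0.40, and the largest rise was 31.6% over WT. The SEs were 0.0209 to 0.0462. Both comparisons use the same 3 WT dishes, so their likeness is not independent evidence.

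**Figure D1:**
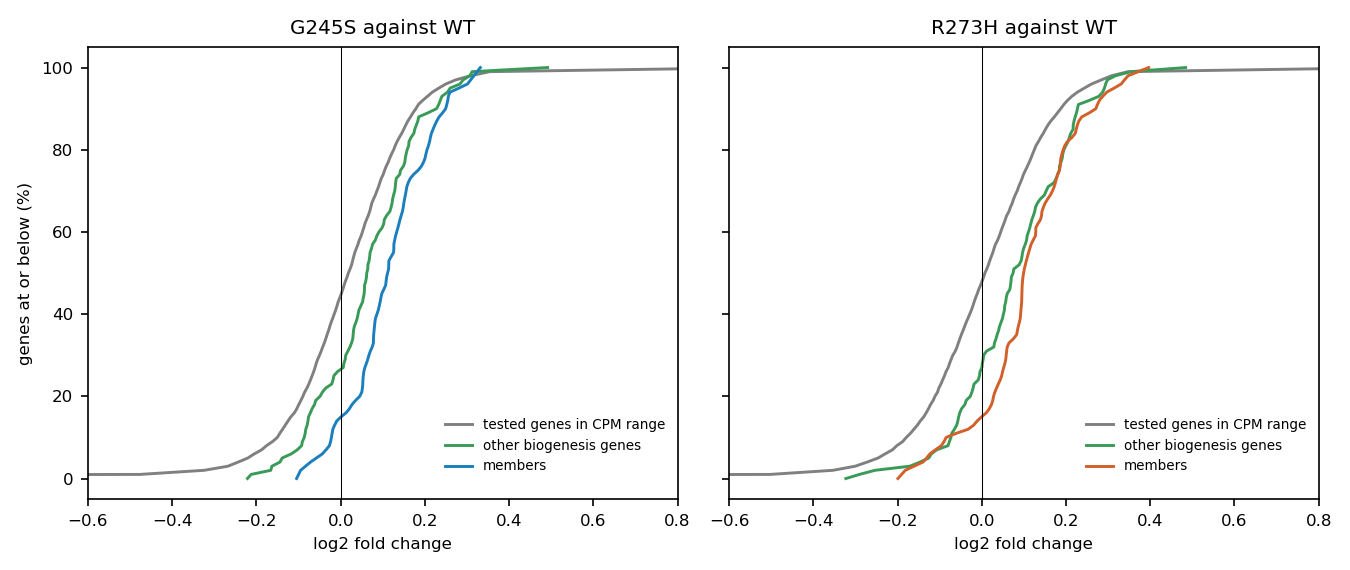
Cumulative distribution of log2 fold changes (x axis) in percent of genes (y axis), for G245S (left) and R273H (right) against WT. In both panels the curve of the 50 members lies to the right of the tested genes in the same CPM range over most of its course, with medians of 0.11 and 0.099, and the curve of 105 other biogenesis genes lies between them at its median (0.062 and 0.074).

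The shift was visible in every dish. The members together took 1.25%, 1.24% and 1.26% of all counts in the WT dishes, 1.33%, 1.32% and 1.34% in G245S, and 1.35%, 1.33% and 1.34% in R273H. All 6 mutant dishes were above all 3 WT dishes. Without NCL and NPM1, which carry the most footprints, the shares were 0.793 ± 0.00112% in WT, 0.849 ± 0.00382% in G245S and 0.856 ± 0.00343% in R273H. The median member, relative to the mean of the WT dishes, stood at a log2 value of 0.12, 0.089 and 0.12 in the G245S dishes and 0.11, 0.098 and 0.12 in the R273H dishes, and between −0.013 and 0.0091 in the WT dishes. In each mutant dish 42 or 43 members were above the WT mean, against 16 to 31 in a WT dish. No test is attached to these sums, since the members were chosen with results of these data known.

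**Figure D2:**
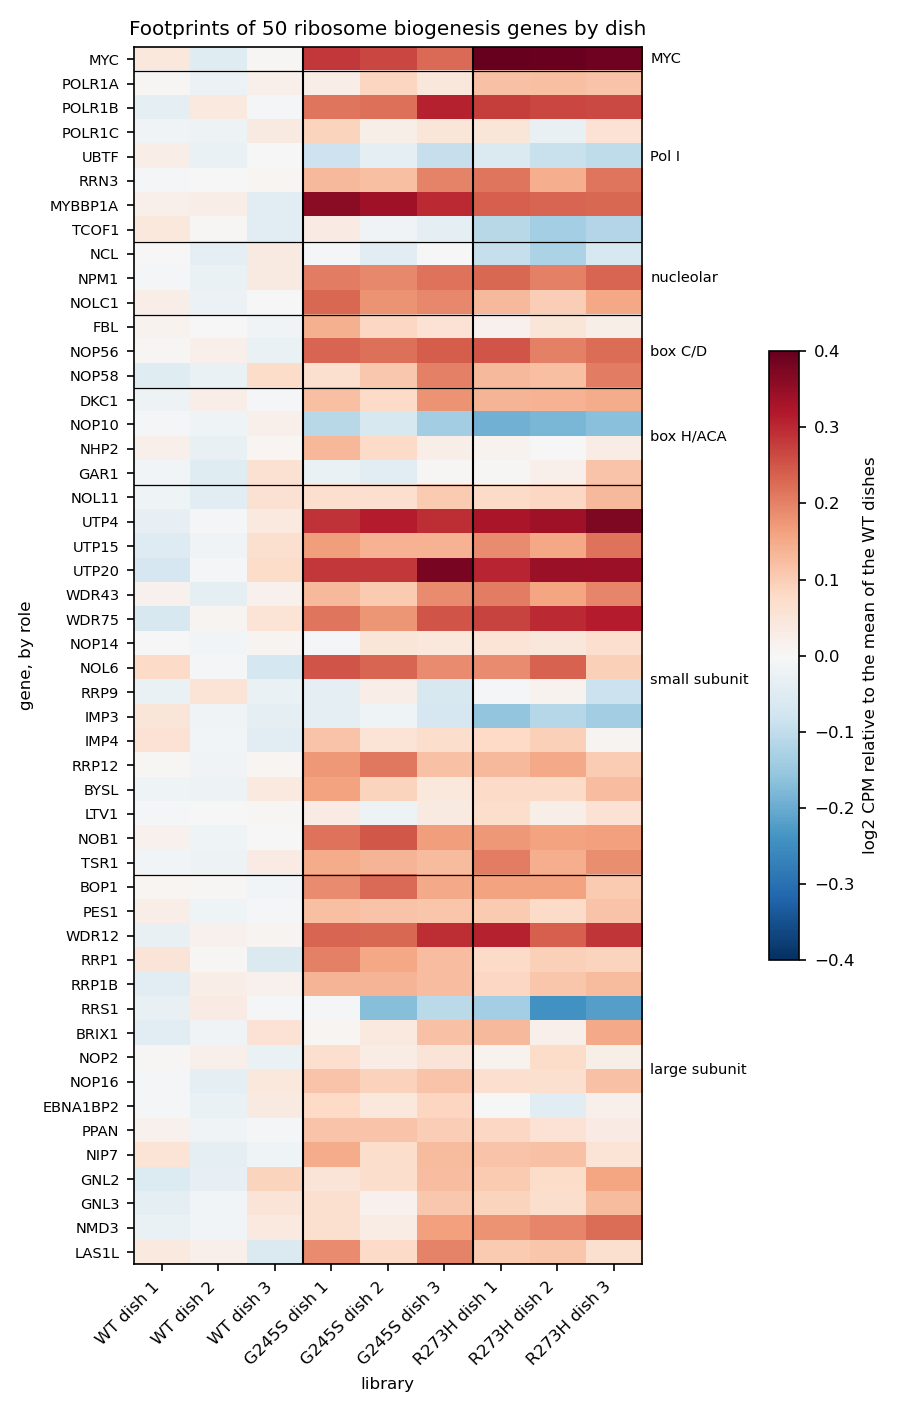
Log2 CPM of each member (rows, grouped by role) in each of the 9 dishes (columns), relative to the mean of the 3 WT dishes, with red above and blue below it on a scale cut at ±0.4. The 6 mutant columns are mainly red, while NOP10, UBTF, RRS1 and IMP3 stand out as blue rows among them.

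MYC itself rose in both mutants. Its footprints were 175, 165 and 171 CPM in the WT dishes, 207, 205 and 199 in G245S, and 226, 224 and 223 in R273H. The 3 groups did not overlap, with WT lowest and R273H highest. The log2 fold change was 0.26 in G245S (SE 0.0291, adjusted p = 9.59e-08, edgeR) and 0.40 in R273H (SE 0.0285, adjusted p = 9.86e-12). MYC was also 1 of the 3 members that differed between the mutants, lower in G245S than in R273H by 0.14 on the log2 scale (SE 0.0280, adjusted p = 0.00477). Per kilobase of coding sequence, the scale for comparing genes, MYC stood at 125 CPM in WT, 149.5 in G245S and 165 in R273H. FBXW7, no member but the F-box protein that marks MYC for degradation, was 24.8, 25.6 and 25.8 CPM in WT, 10.7, 10.7 and 11.4 in G245S and 11.7, 12.2 and 10.3 in R273H. It fell by 1.21 (SE 0.0755, adjusted p = 4.18e-13) and 1.15 (SE 0.0722, adjusted p = 4.38e-13) on the log2 scale, by far more than any member moved. Footprints give relative ribosome occupancy, and neither the rate of synthesis nor the level of the MYC protein was measured here.

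Of 14 genes of the MYC network on a list that held FBXW7, 5 fell in G245S and 9 were not called, and in R273H 2 rose and 5 fell. Over all tested genes, lower calls made up 12.1% in G245S and 14.6% in R273H, and higher calls 12.6% and 14.2%. The list was not matched to all genes by CPM, and its counts were not tested against these shares. MAX, the obligate partner of MYC, was 49.2 ± 1.13 CPM in WT, 47.8 ± 2.90 in G245S and 46.5 ± 3.24 in R273H and was not called (adjusted p = 0.595 and 0.272, edgeR). MXD1, an antagonist that competes for MAX, fell from 12.3 ± 0.538 CPM to 8.20 ± 0.389 and 8.19 ± 0.125 (log2 fold changes −0.58 and −0.59). MXD4, of the same family, and MLX, a related partner protein, fell as well, by 0.15 and 0.16 in G245S and by 0.23 and 0.24 in R273H. In G245S the call of MXD4 was lost without dish 1 or 2 of WT or dish 1 or 3 of G245S (adjusted p up to 0.116) and that of MLX without dish 3 of WT or of G245S (up to 0.0580). MYCBP, a MYC-binding protein, was called in G245S (−0.22) and not in R273H (−0.12), where it passed without dish 1 of WT (−0.18, adjusted p = 0.0118) or dish 3 of R273H (−0.16, adjusted p = 0.0371). MXD3 was called in R273H (−0.23, adjusted p = 0.0484), a call lost in most alternatives, among them leaving out any dish of WT or R273H (adjusted p up to 0.184). MGA and MLXIP were called higher in R273H (0.17 and 0.28). None of the 14 was called between the mutants by edgeR or DESeq2, although 3 had an unadjusted p under 0.05 in edgeR. In other edgeR settings MGA (−0.12) and MLXIP (−0.16) were called lower in G245S with the replicate block, MLXIP also with the length and GC trend removed (−0.20), and MXD3 higher and MGA lower without dish 3 of G245S (0.34 and −0.14, adjusted p = 0.0476 and 0.0478). MYCN, the neuronal paralog, stayed below 1 CPM in all dishes (6 to 21 counts). It stood at 0.98 in G245S and 0.90 in R273H and was not called (adjusted p = 0.0518 and 0.0647, edgeR). With upper-quartile normalization MYCN was called in G245S (adjusted p = 0.0480). MYCL was not called (0.37 and 0.21), but passed in G245S without dish 3 of WT or dish 1 of G245S (adjusted p = 0.0470 and 0.0461).

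Because the E-box is the sequence that MYC with MAX is known to bind, the promoters of the members were searched for the letters CACGTG, which read the same on both strands. The windows run from 250 bases before to 50 after the start of each gene and come from RefSeq (GRCh38.p14), and 42 members had one. The motif was present in 18 of these 42 windows (42.9%), in 23 of 92 windows of other biogenesis genes (25.0%), in 1378 of 10786 windows of tested protein-coding genes (12.8%) and in 2396 of all 27305 windows (8.78%). The following stretches show it in 2 small subunit factors and a polymerase I cofactor that were among the members with the largest rises (UTP20, UTP4, MYBBP1A), in a member called in G245S and not in R273H (FBL), in one that fell (NOP10) and in one that was not called (RRP9). Each is printed 5′ to 3′ on the strand of the gene, with the motif in capitals.
UTP20, chr12:101280084-101280111, plus strand: ttttttccgtcCACGTGacccactcagg
UTP4, chr16:69132622-69132649, plus strand: gagcgcgcgcgCACGTGgggccggggcg
MYBBP1A, chr17:4555341-4555368, minus strand: gggccggagcaCACGTGtttcgtgtttc
FBL, chr19:39846357-39846384, minus strand: gcgctcttttcCACGTGcgaaagccccg
NOP10, chr15:34343131-34343158, minus strand: aaattgacgaaCACGTGacgcggtcggg
RRP9, chr3:51941893-51941920, minus strand: ggttcagctgcCACGTGagttctgcggc

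Counted from the RefSeq start, the motif begins 10, 16, 11 and 5 bases before it in UTP20, UTP4, NOP10 and RRP9. In FBL and MYBBP1A it begins at base 7 and base 28 of the transcript. The GENCODE spans of UTP4 and NOP10 start further upstream, so that the motif lies inside them. Whether the motif goes with the size of the change was not tested, and members with and without it were not matched by coding length or CPM. For scale, 27.6% (G245S) and 28.0% (R273H) of the 4430 genes in the members' CPM range passed as higher. As lower, 19.1% and 24.2% passed. Of the 18 members with it, 8 rose and 1 fell in G245S, and in R273H 9 rose and 1 fell, with median log2 fold changes of 0.080 and 0.076. Of the 24 with a window and no motif, 17 rose in G245S, and in R273H 16 rose and 3 fell, with medians of 0.12 and 0.11. These are counts of letters in a window, and binding was not measured here.

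Among the 7 members that serve RNA polymerase I, the responses were mixed. POLR1B, the second-largest polymerase subunit, rose from 91.4 ± 2.40 CPM to 108 ± 3.99 in G245S and 110.1 ± 0.408 in R273H (log2 fold changes 0.25 and 0.27), while the largest subunit POLR1A was 136, 134 and 138 CPM in WT, 138, 144 and 140.2 in G245S and 148, 148 and 147 in R273H. POLR1A rose in R273H (log2 fold change 0.12, SE 0.0293, edgeR adjusted p = 0.00303) and was not called in G245S (0.052, adjusted p = 0.218), and the mutants did not differ by the test between them (adjusted p = 0.264). POLR1C, a subunit shared with polymerase III, was not called in either mutant (0.053 and 0.025). RRN3, the factor that makes the polymerase competent for initiation, rose by 0.15 and 0.19.

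UBTF, which binds along the rRNA genes and keeps them open, went the other way. Its values were 135, 130.2 and 133 CPM in WT, 125, 129 and 124 in G245S and 127, 125 and 124 in R273H. The WT dishes were above all mutant dishes by a small margin. Only R273H passed the test (log2 fold change −0.084, SE 0.0306, adjusted p = 0.0397), and this call was lost in 9 of 18 alternative settings, among them DESeq2 and leaving out dish 1 or 3 of WT, dish 2 of G245S or dish 2 or 3 of R273H (−0.071 and an adjusted p of 0.138 without WT dish 1). In G245S, UBTF stood at −0.071 and was not called, although it was with the replicate block and with the length and GC trend removed (−0.077, adjusted p = 0.0317).

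The most changed member in G245S was MYBBP1A, a nucleolar protein that binds MYB and p53 and restrains rRNA synthesis. It lies at chr17:4538897-4555386 (GRCh38, GENCODE v44, minus strand) and overlaps SPNS2 on the other strand. Its footprints were 318, 319 and 303 CPM in WT, 402, 396 and 385 in G245S and 369, 368 and 367 in R273H. All 3 groups were separate, with G245S highest. The log2 fold change was 0.33 in G245S (SE 0.0259, adjusted p = 6.03e-11) and 0.23 in R273H (SE 0.0257, adjusted p = 5.47e-08).

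TCOF1, the treacle protein that holds the polymerase machinery in the nucleolus, differed between the mutants. It was at 291, 283 and 274 CPM in WT, 289, 280.0 and 275 in G245S and 262, 258 and 260.4 in R273H. The R273H dishes lay below all others, while WT and G245S overlapped. TCOF1 fell in R273H (log2 fold change −0.12, SE 0.0274, adjusted p = 0.00110) and stood at −0.0078 in G245S (adjusted p = 0.876).

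The abundant nucleolar proteins split. NPM1 (nucleophosmin), a histone and ribosome chaperone of the outer nucleolus, was the member with the most footprints both in total and per kilobase of coding sequence (2787 CPM per kilobase in WT). Its dishes were at 2443, 2413 and 2517 CPM in WT, 2829.7, 2806 and 2856 in G245S and 2883, 2827 and 2887 in R273H. Both mutants were above WT in every dish and overlapped each other, and NPM1 rose by 0.20 (SE 0.0209, adjusted p = 1.53e-08) and by 0.22 (SE 0.0209, adjusted p = 2.74e-09). The annotation names 49 pseudogenes after NPM1, so its counts are uncertain where reads matched several copies. NCL (nucleolin), the next most abundant at 978 CPM per kilobase, was at 2084, 2029 and 2136 CPM in WT, 2074, 2018 and 2079 in G245S and 1954, 1909 and 1993 in R273H. NCL fell in R273H, where all dishes were below the others (−0.094, SE 0.0227, adjusted p = 0.00237), and was not called in G245S (−0.018, adjusted p = 0.618). NOLC1, a phosphoprotein that brings snoRNPs to the nucleolus, rose by 0.20 and 0.13.

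**Figure D3:**
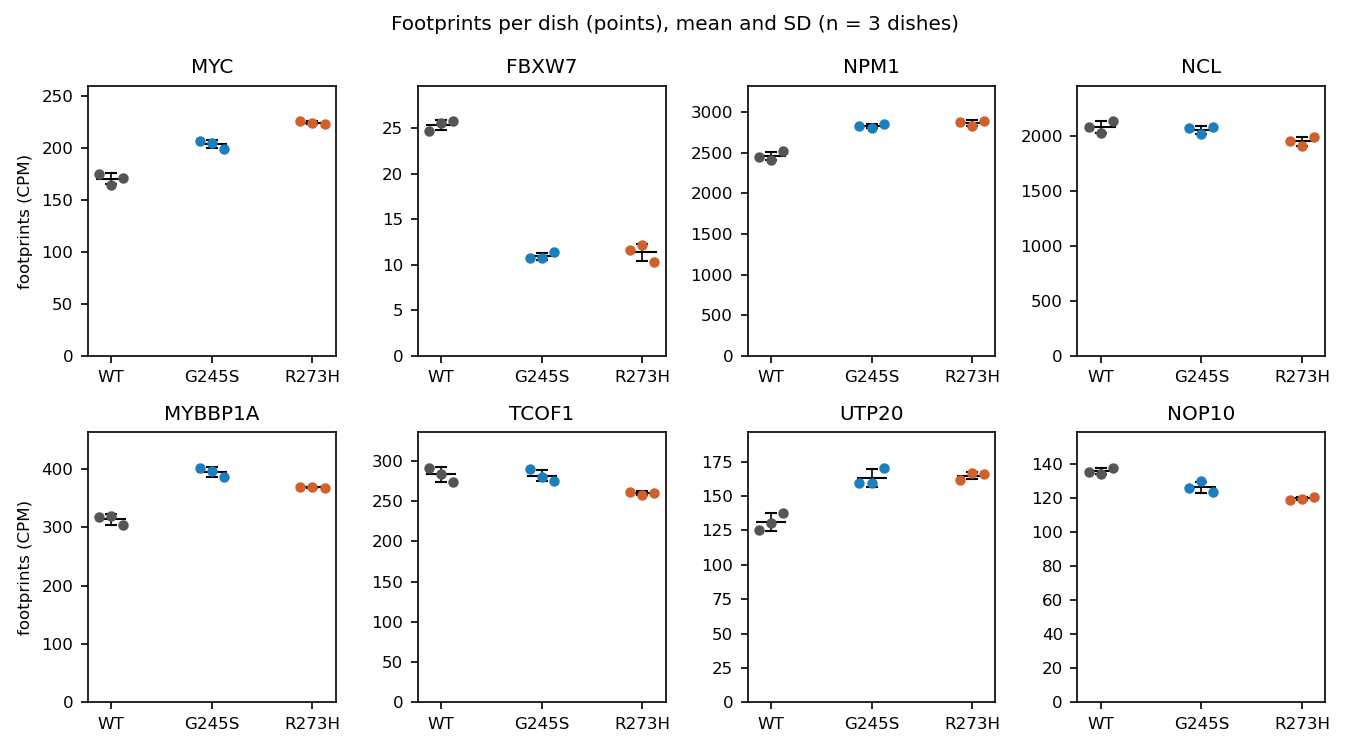
Footprints in CPM (y axis from 0) in each dish (points) of WT, G245S and R273H, with the mean (long bar) and SD (whiskers), n = 3, for 7 members and for FBXW7. MYC, NPM1, MYBBP1A and UTP20 are higher in both mutants, NOP10 and FBXW7 lower in both, and NCL and TCOF1 are lower in R273H.

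The snoRNPs come in a methylating and a pseudouridylating class. Of the box C/D proteins that methylate rRNA, all 3 rose in G245S and 2 of 3 in R273H. NOP56, a core scaffold, rose from 159 ± 2.65 CPM to 187 ± 1.31 and 186 ± 3.31 (log2 fold change 0.23 in each mutant). NOP58, its partner, rose by 0.13 and 0.15, although its WT and G245S dishes overlapped, and its call in G245S was lost without dish 1 or 2 of WT or dish 3 of G245S (adjusted p = 0.0829, 0.0736 and 0.0802). FBL (fibrillarin), the methyltransferase itself, was 414, 410.1 and 406 CPM in WT, 452, 434 and 427 in G245S and 415, 423 and 416 in R273H. The G245S dishes were highest and passed the test (0.094, SE 0.0251, adjusted p = 0.00642), while R273H stood just above WT (0.029, adjusted p = 0.426), and the mutants did not pass the test between them (adjusted p = 0.175). The FBL call was lost without dish 1 of G245S (adjusted p = 0.0560), and a call in R273H was gained (0.080, adjusted p = 0.00295) when the length and GC trend was removed.

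Among the 4 box H/ACA proteins, which guide pseudouridylation, the catalytic subunit and the smallest subunit moved apart. DKC1 (dyskerin), the pseudouridine synthase, was 228, 235 and 229.9 CPM in WT, 251, 243 and 261 in G245S and 253, 254 and 256 in R273H. All mutant dishes were above WT, and DKC1 rose by 0.13 (SE 0.0281, adjusted p = 0.00126) and 0.14 (SE 0.0277, adjusted p = 0.000282). NOP10, the small protein that binds dyskerin, was 135, 134 and 138 CPM in WT, 126, 129.8 and 123 in G245S and 119, 119.5 and 121 in R273H. The 3 groups did not overlap, and NOP10 fell by 0.10 in G245S (SE 0.0310, adjusted p = 0.0132) and by 0.18 in R273H (SE 0.0305, adjusted p = 4.04e-05). NOP10 has the shortest coding region of all members, 192 nt, and both calls were lost once the length and GC trend was removed, when G245S turned to 0.024 and R273H to −0.044. The call in G245S was also lost without dish 3 of WT or of G245S (adjusted p = 0.0539 and 0.0771). NHP2, the RNA-binding subunit, passed in G245S at the threshold (0.078, adjusted p = 0.0498) and not in R273H (0.015), with no difference called between the mutants (adjusted p = 0.269). It lost the call in G245S in 11 of 18 alternative settings, 7 of them leaving out 1 dish (any but dish 3 of WT or of G245S, adjusted p up to 0.244). With the length and GC trend removed it was called in both mutants (0.14, and 0.12 with an adjusted p of 0.000282 in R273H). GAR1, which helps release the product, was not called (−0.022 and 0.046), but was called in R273H with the trend removed (0.11, adjusted p = 0.00518).

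Small subunit assembly factors showed the highest median of the larger classes, at 0.14 in G245S and 0.15 in R273H. Of 16 members, 11 rose and 5 were not called in G245S, and in R273H 11 rose, 1 fell and 4 were not called. Within this class, the 5 members of the t-UTP complex, which joins the nascent transcript first and is needed for its transcription, rose in both mutants (NOL11, UTP4, UTP15, WDR43 and WDR75). This complex was singled out after its values were seen. NOL11, the weakest of them, stood at 0.080 and 0.095, and its call in G245S was lost when any dish of G245S or dish 1 or 2 of WT was left out (adjusted p up to 0.211). In R273H its call was lost without dish 2 of WT or dish 3 of R273H (adjusted p = 0.0947 and 0.0622) and with the length and GC trend removed.

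UTP4, which lies at chr16:69131291-69231130 and overlaps SNTB2 on the same strand, was 121, 123 and 127 CPM in WT, 152, 154 and 152 in G245S and 156, 157 and 161 in R273H. The groups were separate, and UTP4 rose by 0.30 in G245S (SE 0.0305, adjusted p = 1.23e-08) and by 0.35 in R273H (SE 0.0299, adjusted p = 4.90e-10). WDR75 was 127, 134 and 138 CPM in WT, 154, 150.4 and 158 in G245S and 161, 164 and 165 in R273H, again with no overlap between groups (0.21, SE 0.0328, adjusted p = 1.36e-05, and 0.29, SE 0.0321, adjusted p = 4.35e-08). The test between the mutants was not passed for either gene (adjusted p = 0.476 and 0.189). HEATR1, the remaining subunit of this complex and no member of the set, rose most of the biogenesis genes examined: it was 229.9, 227 and 232 CPM in WT, 315, 324 and 329 in G245S and 319.9, 317 and 327 in R273H (0.49, SE 0.0264, and 0.48, SE 0.0261, adjusted p = 1.31e-14 in each).

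UTP20, a very large scaffold of the small subunit processome, was 125, 130.4 and 138 CPM in WT, 159, 159 and 170.5 in G245S and 162, 166 and 166 in R273H. Mutant dishes were all above WT and overlapped each other, and UTP20 rose by 0.32 in G245S (SE 0.0349, adjusted p = 8.00e-08) and by 0.33 in R273H (SE 0.0343, adjusted p = 2.41e-08). Its coding region, at 8355 nt (chr12:101280105-101386618, plus strand), is the longest of the members, and per kilobase it had the fewest footprints, 15.7 CPM in WT. NOL6, a processome scaffold with a tRNA nucleotidyltransferase-like fold, rose by 0.22 and 0.17. RRP12, a transport and maturation factor, rose by 0.17 and 0.13, and TSR1, a factor that resembles a translational GTPase, by 0.14 and 0.18. NOB1, the nuclease that makes the final cut of the small subunit rRNA, was at 94.7 to 97.1 CPM in WT, 108 to 114 in G245S and 107 to 108 in R273H and rose in both (0.21 and 0.17). BYSL passed at 0.097 and 0.091 with adjusted p of 0.0320 and 0.0359, and its calls were lost with DESeq2. They were also lost without dish 1 or 2 of WT, the one in G245S without dish 1 or 2 of G245S, and the one in R273H without any dish of R273H (adjusted p up to 0.187).

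IMP3, which with its partner IMP4 helps pair a guide snoRNA with the precursor, was 105, 101 and 99.5 CPM in WT, 99.3, 101 and 97.2 in G245S and 91.3, 94.2 and 92.5 in R273H. Its R273H dishes were below all others, and it fell there (−0.14, SE 0.0339, adjusted p = 0.00262), while G245S overlapped WT (−0.042, adjusted p = 0.418). The coding region of IMP3 is short (552 nt), and with the length and GC trend removed the value in R273H was −0.035 and no longer called. IMP4 was not called (0.078 and 0.061), but was called in both mutants with that trend removed (0.090 and 0.12, adjusted p = 0.0397 and 0.00335). NOP14, RRP9 and LTV1 were not called in either mutant, with values between −0.025 and 0.057, and RRP9, a protein of the snoRNP that IMP3 assists, had the fewest counts of all members (897 in its lowest library).

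Large subunit assembly factors followed with medians of 0.11 and 0.095. Of 16 members, 9 rose and 7 were not called in G245S, and in R273H 10 rose, 1 fell and 5 were not called. The PeBoW complex of PES1, BOP1 and WDR12, which is needed for cutting the large subunit precursor, rose as a whole. WDR12 was 152, 157 and 156 CPM in WT, 182, 182 and 190.1 in G245S and 192, 183 and 189 in R273H. No mutant dish overlapped WT, and WDR12 rose by 0.25 (SE 0.0301, adjusted p = 2.18e-07) and 0.28 (SE 0.0296, adjusted p = 2.84e-08). BOP1 rose by 0.19 and 0.14 and PES1 by 0.11 and 0.098.

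RRS1, which helps to load the small RNA of the large subunit with its ribosomal proteins, was the exception of this class. It was 82.7, 86.4 and 84.2 CPM in WT, 84.0, 75.0 and 78.3 in G245S and 76.8, 71.4 and 72.4 in R273H. R273H was below every WT dish and G245S overlapped both, so that RRS1 fell in R273H (−0.20, SE 0.0409, adjusted p = 0.000457) and was not called in G245S (−0.095, adjusted p = 0.0976), though it was without dish 1 of G245S (−0.14, adjusted p = 0.0290). The annotation places another coding gene over RRS1 on the same strand. The mutants did not pass the test between them (adjusted p = 0.191).

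Of the other large subunit factors, RRP1B, a nucleolar protein, rose by 0.13 and 0.11, NOP16 by 0.11 and 0.082, and NIP7, an early assembly factor, by 0.11 and 0.095. With dish 1 of WT left out RRP1B lost its call in R273H (adjusted p = 0.0563). NOP16 lost its call in G245S without dish 2 of WT (adjusted p = 0.0803) and in R273H without dish 1 or 2 of WT, dish 2 of G245S or any dish of R273H (up to 0.201). NIP7 lost its call in G245S without dish 2 of WT or dish 1 of G245S (up to 0.0797) and in R273H without dish 2 or 3 of WT or dish 1 or 2 of R273H (up to 0.154). RRP1, PPAN and LAS1L were called in G245S (0.16, 0.11 and 0.15) and did not pass in R273H (0.086, 0.059 and 0.093, adjusted p = 0.0559, 0.175 and 0.0542). In R273H, however, LAS1L passed in 11 and RRP1 in 9 of 18 alternatives, both without dish 1 of WT among them (0.11 in each, adjusted p = 0.0453 and 0.0276). NMD3, the export adapter, BRIX1 and the GTPases GNL2 and GNL3 were called in R273H (0.20, 0.10, 0.11 and 0.096) and stood at 0.089, 0.056, 0.082 and 0.063 in G245S, which did not pass. In G245S, GNL2, NMD3 and GNL3 nevertheless passed in 7, 6 and 5 of 18 alternatives, each of them without dish 3 of WT (0.13, 0.11 and 0.093, adjusted p = 0.00213, 0.0265 and 0.0135), and BRIX1 in 2. PPAN lost its call without dish 2 of WT (adjusted p = 0.0532), BRIX1 without dish 1 or 2 of WT, dish 2 of G245S or dish 1 or 3 of R273H (up to 0.179), GNL2 without dish 1 or 2 of WT or dish 3 of R273H (up to 0.0925) and GNL3 without dish 1 of WT or dish 3 of R273H (up to 0.0696). For each of these 7 genes the test between the mutants was not passed (adjusted p from 0.0723 to 0.725). NMD3 passed it in 4 alternatives, the replicate block and leaving out dish 3 of G245S among them (−0.15, adjusted p = 0.0105, without that dish). EBNA1BP2 and NOP2, a cytosine methyltransferase of the large subunit rRNA, were not called in either mutant, but EBNA1BP2 was called in G245S in 6 alternatives, such as without dish 3 of WT (0.091, adjusted p = 0.0297).

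**Figure D4:**
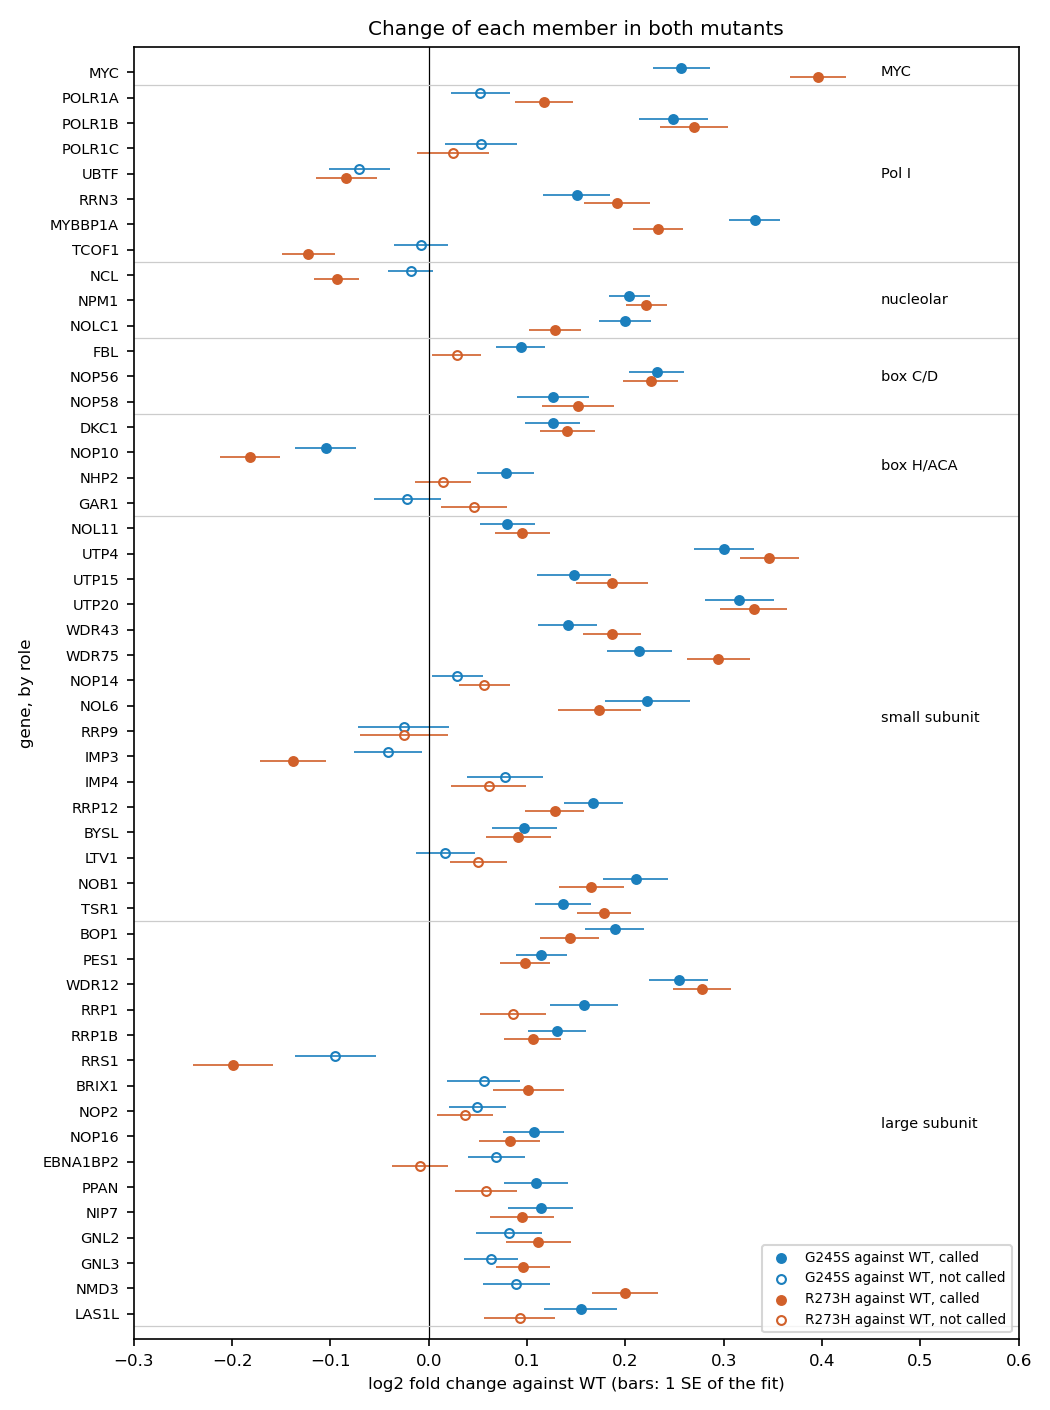
Log2 fold change against WT (x axis) of each of the 50 members (y axis, grouped by role) in G245S (blue) and R273H (orange), with bars of 1 SE, filled points called at an adjusted p under 0.05. Most points lie between 0 and 0.35, and the called points below 0 are NOP10 in both mutants and UBTF, TCOF1, NCL, IMP3 and RRS1 in R273H.

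The mutants themselves were close. Between G245S and R273H, 2 members were higher in G245S, 1 was lower and 47 were not called, against 1.86% of all tested genes called higher and 0.732% lower. More members were called with the replicate block, as given in the last section. The differences ran from −0.14 to 0.11 on the log2 scale with a median of 0.0093. MYBBP1A was higher in G245S by 0.099 (SE 0.0253, adjusted p = 0.0299) and TCOF1 by 0.11 (SE 0.0273, adjusted p = 0.0196). Each of these calls was lost when dish 1 or 2 of G245S or any dish of R273H was left out (adjusted p up to 0.175 for MYBBP1A and 0.144 for TCOF1). The MYBBP1A difference was also not called with the length and GC trend removed (0.065, adjusted p = 0.0791), when NCL was called instead (0.10, adjusted p = 0.00398), or without the filter on low counts. By contrast, the difference in MYC, described above, was kept in each of the 18 alternatives without a minimum fold change. In the snoRNP and assembly classes no member was called by edgeR, with 1 of 3 box C/D, 2 of 4 box H/ACA, 2 of 16 small subunit and 4 of 16 large subunit members at an unadjusted p under 0.05, and DESeq2 called none in these classes either.

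Coding length moved with the size of the change. Over the 50 members, the log2 fold change rose with coding length at a Spearman rho of 0.30 in G245S and 0.36 in R273H, and over 10883 protein-coding genes at 0.15 and 0.21, in the same libraries. GC content of the coding region had a rho of −0.13 and −0.42 over the members. For the difference between the mutants GC had a rho of 0.65 over the members and 0.43 over all these genes. With both trends removed, 37 members were called higher and 1 lower in G245S, against 37 and 4 in R273H, and the medians were 0.13 and 0.12. The same step lifted the medians of the 10883 protein-coding genes as well. These became 0.013 for G245S and 0.012 for R273H, where the main fit had −0.0017 and −0.0044. Whether the set rose beyond this general lift was not tested, and its calls were not set against those of all genes after trend removal. In G245S 7 members gained a call in this way (UBTF, IMP4, BRIX1, EBNA1BP2, GNL2, GNL3 and NMD3) and NOP10 lost one, and in R273H 7 gained one (FBL, NHP2, GAR1, IMP4, RRP1, PPAN and LAS1L) and NOP10, NOL11 and IMP3 lost one.

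**Figure D5:**
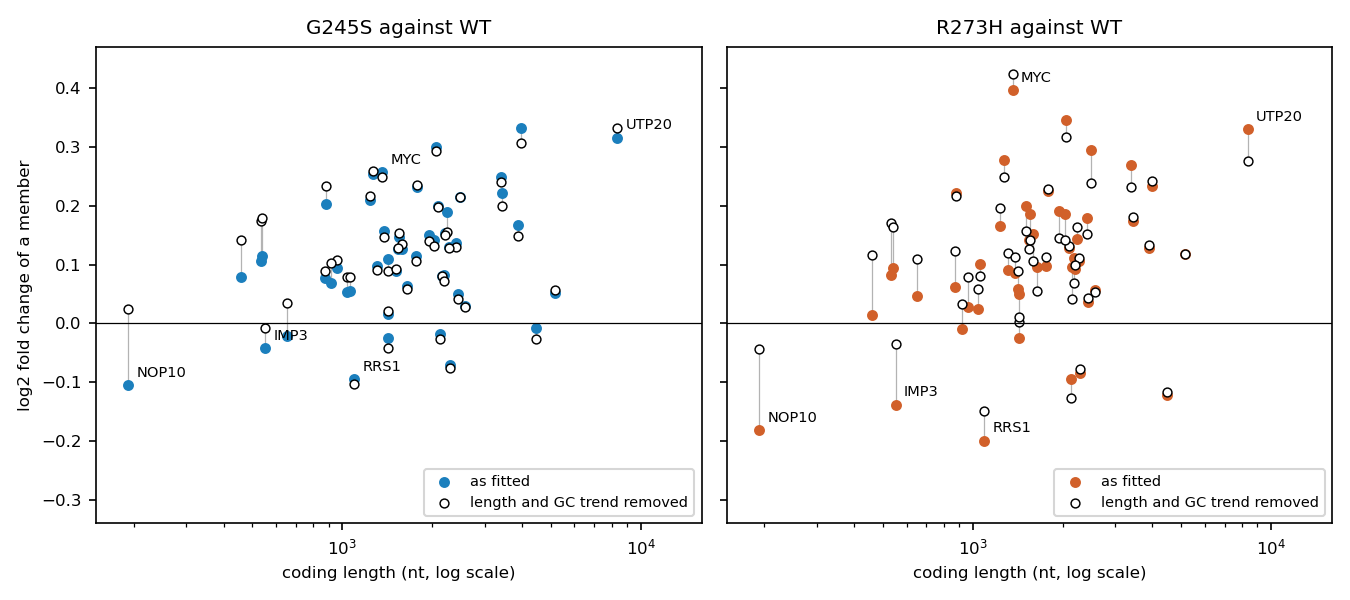
Log2 fold change of each member (y axis) against its coding length in nt (x axis, log scale), as fitted (filled) and with the length and GC trend of all genes removed (open, joined by a line), in G245S (left) and R273H (right). NOP10, the shortest at 192 nt, moves up from −0.10 to 0.024 and from −0.18 to −0.044, and UTP20, the longest at 8355 nt, goes from 0.32 to 0.33 and from 0.33 to 0.28.

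Genes of the same pathway outside the set moved in the same direction with a smaller median. Of 105 other biogenesis genes, 43 rose and 8 fell in G245S (median 0.062), while in R273H 47 rose and 8 fell (median 0.074). Background rates of a rise (G245S first) were 12.6% and 14.2% across the whole test, or 27.6% and 28.0% in the members' CPM range. Background rates of a fall were 12.1% and 14.6%, or 19.1% and 24.2% in that range. These lists were neither matched by CPM nor tested against such rates. By role, 2 of 10 further polymerase I genes rose and 1 fell in G245S and 3 rose in R273H. These counts are near the shares called higher in that CPM range, although TAF1A, TAF1C, POLR1D and TTF1 lie below it. Of 40 small subunit factors 17 rose and 4 fell in G245S, and 21 rose and 2 fell in R273H. Of 41 large subunit factors 18 rose in each mutant, while 2 and 5 fell. Of 14 genes of the nuclear exosome, which trims rRNA ends, 6 and 5 rose and 1 fell in each mutant. MDN1, the giant ATPase that strips factors from the large subunit, rose from 149 ± 1.63 CPM to 185 ± 6.61 and 186 ± 0.851 (log2 fold changes 0.31 and 0.32), and URB2, a large subunit factor, by 0.31 and 0.30. TAF1B, a subunit of the polymerase I selectivity factor, rose by 0.24 and 0.36, and the exosome nuclease DIS3 by 0.23 and 0.27. Among those that fell, EXOSC6, an exosome core subunit, stood at −0.21 and −0.32, ABT1 at −0.17 and −0.29, and TSR2, the escort of a small subunit protein, at −0.22 and −0.17.

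The ribosomal proteins that link assembly to p53 rose with the set. RPL5 was 1214, 1203 and 1279.5 CPM in WT, 1424, 1394 and 1431 in G245S and 1379.8, 1393 and 1432 in R273H, with no overlap between WT and the mutants (log2 fold changes 0.20, adjusted p = 2.24e-07, and 0.19, adjusted p = 6.71e-07). RPL11 was called as well (0.17, adjusted p = 6.14e-06, and 0.092, adjusted p = 0.00520), in R273H not without dish 3 of R273H (0.071, adjusted p = 0.0530). MDM4, the relative of MDM2, rose in R273H (0.36) and stood at 0.22 in G245S (adjusted p = 0.0621), where it passed with the replicate block (adjusted p = 0.0361) and without dish 1 of R273H (adjusted p = 0.0459), and the mutants did not differ by the test between them (adjusted p = 0.394). CDKN2A, whose ARF product binds MDM2 in the nucleolus, was not called against WT (0.076 and −0.071). With the replicate block it was called higher in G245S (adjusted p = 0.0197) and lower in R273H (adjusted p = 0.0247), and with the length and GC trend removed it was called higher in both (0.12 and 0.063), so that its sign in R273H turned. It was also called without dish 1 of WT in G245S (0.10, adjusted p = 0.0491) and without dish 3 of WT in R273H (−0.100, adjusted p = 0.0254).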

How the data were processed

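The authors trimmed the reads with Trim Galore, removed rRNA reads with SortMeRNA and aligned them to GRCh38 with STAR. The deposited table holds expected counts per gene, which need not be whole. The counting tool, the handling of strand and whether counts cover coding regions only are not given in the sources used here. Counts were rounded and tested with edgeR 4.0.16 in R 4.3.3 (filterByExpr, TMM, robust glmQLFit, glmQLFTest, two-sided, Benjamini-Hochberg over 19820 genes, 6 residual degrees of freedom), with group as the only term. DESeq2 1.42.0 was an alternative. The fit was tested on simulated counts drawn independently for each dish. These held no shared deviation by dish number, no difference between pools and no length and GC trend, so the simulation does not cover such effects. Of the table's genes, 62666 matched GENCODE v44, from which coordinates, coding lengths and overlaps come. Since strand use is unknown, 19 members that overlap coding genes on the other strand, 10 that hold snoRNA genes and 13 with named pseudogenes are uncertain. Dish values are given for MYC, NCL, NPM1, FBL, DKC1, POLR1A, UBTF, the 5 most positive and 5 most negative called members of each mutant and members called between mutants (fewer than 5 fell in G245S). Members, lists and this rule were chosen with earlier results of these data known. No spike-in was used, so changes are relative to other genes.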

Additional observations from a re-analysis of the deposited data

Results flagged for a closer look

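These genes differed between the 2 mutant lines by the edgeR test of that difference, given as log2 of G245S over R273H. Among the members, MYC stood at −0.14, MYBBP1A at 0.099 and TCOF1 at 0.11. Among genes outside the set, WDR18 of the rixosome complex stood at 0.16 (adjusted p = 0.0266), the nucleolar methyltransferase RRP8 at 0.20 (adjusted p = 0.0246), the NPM1 relative NPM3 at 0.16 (adjusted p = 0.00916) and CDKN2A at 0.15 (adjusted p = 0.0121). The CDKN2A difference was not called with the length and GC trend removed (0.055) or without dish 1 of G245S or dish 1 or 3 of R273H (adjusted p = 0.109, 0.0696 and 0.0819). WDR18 was 104 ± 2.89 CPM in WT, 116 ± 6.59 in G245S and 104 ± 4.32 in R273H, and RRP8 was 35.7 ± 1.14, 34.3 ± 0.512 and 29.8 ± 0.570. NPM3 rose in both mutants against WT, by 0.29 in G245S and 0.13 in R273H. The calls of WDR18, RRP8 and NPM3 between the mutants were each lost without dish 1 or 2 of G245S or dish 2 of R273H.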

How the results depend on the processing

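Against WT, leaving out 1 dish at a time gave 25 to 35 called members in G245S and 31 to 39 in R273H, and the R273H median ran from 0.094 to 0.13. Of the 32 members called in G245S, 23 kept their call in each of the 18 alternatives other than a minimum fold change, and of 37 in R273H 26 did. Of the uncalled members, 9 of 18 in G245S and 5 of 13 in R273H stayed uncalled in each of them. Tested against a minimum fold change of 1.2, 0 members were called in G245S (3 at an unadjusted p under 0.05), 2 in R273H and 0 between the mutants (0 unadjusted), and 1, 1 and 0 other biogenesis genes. The member medians were 0.13 in G245S and 0.12 in R273H with the length and GC trend removed, also with the replicate block added (0.13 and 0.12), and 0.12 in R273H with upper-quartile normalization. Between the mutants, the number of called members was 10 with the replicate block, 7 with block and trend removal, 8 without dish 3 of every group (an alternative chosen after seeing the data) and 1 to 4 without 1 dish. For other biogenesis genes it was 15, 7 and 9, 7 without the low-count filter and 0 to 8 without 1 dish (0 without G245S dish 1 or 2 or R273H dish 2, with 15 to 23 at an unadjusted p under 0.05 in edgeR, 8 without G245S dish 3). Dishes shared a number across groups. Same-numbered dishes deviated together weakly (correlations 0.042 to 0.23, all above 0), while those of different number stood at −0.18 to 0.058. The main fit did not treat them as paired, and pairing by number is covered only by the replicate block. The block gave 38 called members in G245S and 40 in R273H. Summed shares were 0.793%, 0.849% and 0.856% without NCL and NPM1, and 1.23%, 1.31% and 1.32% without MYC. Signs turned for uncalled values near 0 and for NOP10. In G245S against WT, NCL was 0.0042 without WT dish 3 (−0.036 to 0.0042 with 1 dish left out), NOP10 0.024 with the length and GC trend removed and also with the block added, and TCOF1 0.0046 with upper-quartile normalization, 0.014 without WT dish 1 and 0.012 without G245S dish 3 (−0.027 to 0.014). In G245S against R273H with the trend removed, and with the block added, NPM1 was 0.017 and 0.017, DKC1 0.00063 and 0.00029, UTP20 0.056 and 0.055, and WDR12 0.011 and 0.012. Without G245S dish 2, DKC1 was 0.0099 (−0.041 to 0.0099 over all dishes left out), UBTF −0.0042 (−0.0042 to 0.027) and UTP20 0.0025, and without G245S dish 1 UTP20 was 0.0036 (−0.047 to 0.0036). The causes were not tested.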
